A study of Mus musculus with 18 samples.

Results

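The cytosolic ribosomal protein genes were examined in the lateral septum (LS) of female mice before and after motherhood. Ribosomal proteins and ribosomal RNA build the ribosome, the particle that translates every cellular mRNA. The small subunit binds the mRNA and decodes it, and the large subunit joins the amino acids. The ribosomal protein mRNAs carry a terminal oligopyrimidine (TOP) tract, a run of C and T at the transcription start, through which mTORC1 and the RNA-binding protein Larp1 control their translation as a group. The LS is a forebrain region of mostly GABA-releasing neurons that is known for its part in social and maternal behavior.

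Members were chosen by symbol: Rpl or Rps with a number and, where present, a letter a, l or x, together with Rplp0 to Rplp2 and Rpsa. Rps6k genes, which encode kinases, and pseudogenes were left out. Only probesets (groups of oligonucleotides read as 1 signal) assigned to a single gene were used. Such a probeset was found for 59 genes, 37 of the large and 22 of the small subunit, among 19938 genes in all. A further 16 genes that met the rule were named only in probesets shared with other genes, Rpl11, Rpl13a, Rpl3, Rpl32, Rps16 and Rps24 among them, and were not analysed here. The 59 genes had 215 probesets, up to 14 for Rps12, and each gene was read from its brightest probeset over 18 arrays.

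All mice were outbred hsd:ICR females of about 70 days, with 1 array of total RNA from microdissected LS per mouse and 6 mice per group. Virgin mice had no litter and were diestrous. Lactating maternal mice had kept a litter standardized to 11 pups until dissection on postpartum Day 7. Pups removed mice had also given birth, lost the pups on postpartum Day 2 and were likewise dissected on Day 7. They too were diestrous, and the study gives no estrous state for the lactating mice. Signals were log2 values, so that a difference of 1 is a doubling. The lactating maternal against virgin comparison asks how motherhood changes expression, and the comparison with pups removed mice asks whether continued contact with pups matters.

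The arrays had medians between 7.61 and 7.70. Of 9 markers listed for LS and GABA neurons, 8 were measured, with list means of 10.97 ± 0.06 (virgin), 11.00 ± 0.05 (maternal) and 10.95 ± 0.08 (pups removed; SD, n = 6). Markers of several other cell types differed between the groups, in both directions. All 6 measured of 8 striatal neuron markers were lower in maternal than in virgin mice, with 1 called (Bcl11b), and their mean lay between 9.60 and 10.25 in the maternal group, 10.34 and 10.60 in the virgin group and 9.77 and 10.70 in the pups removed group. Of 7 markers of neuroblasts and dividing cells, 6 were lower in maternal than in virgin mice, and Nusap1 and Top2a were called. Their list mean lay between 8.19 and 8.45 in the maternal group, 8.39 and 8.59 in the virgin group and 8.21 and 8.56 in the pups removed group. Of 5 microglial markers, 4 were lower, with P2ry12 and Aif1 called, and Tmem119 was higher by 0.08 on the log2 scale (FDR-adjusted p = 0.465). Of 4 endothelial markers, 2 were lower and 2 higher, and Flt1 was called higher, by 0.15. Both measured blood markers were higher in maternal than in pups removed mice, Alas2 by 0.36 and Slc4a1 by 0.21, without a call. All 4 ependymal and all 5 choroid plexus markers were lower without a call, and the choroid plexus mean ranged from 7.95 to 10.69 among virgin mice alone. No detection limit was applied to the markers. The part of these cells in the ribosomal protein values below was not tested, and in tissue RNA fewer cells of a type cannot be told apart from less RNA per cell.

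The TOP tract could be looked for in RefSeq promoter sequence (GRCm38.p6), where 47 of the 59 genes had an entry. On the transcribed strand, the longest run of C and T was measured within 30 bases of each annotated start. For a gene with several starts, the start with the longest run was kept, in members and other genes alike. The run was 8 bases or more in 24 of the 47 genes (51.1%) and in 25.7% of 26978 other genes. The median longest run was 8 bases against 6. A C at any annotated start of the gene, followed by 4 further pyrimidines, was found in 10 genes (21.3%) and in 3.0% of the others. The following stretches are shown because Rplp0 was called below, Rpl13 and Rpl4 followed it in order of p without a call, Rps6 had the highest signal and Rpl7a the longest run. Capitals mark the longest run of C and T near the start.
Rplp0, chr5:115559466-115559495, plus strand: aggaccgcctggTTCTCCTataaaaggcac
Rpl4, chr9:64173361-64173390, plus strand: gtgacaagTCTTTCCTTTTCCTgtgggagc
Rpl13, chr8:123102324-123102353, plus strand: cgtgacgtcaCTTCCCTTTCgcctgatttt
Rps6, chr4:86857349-86857378, minus strand: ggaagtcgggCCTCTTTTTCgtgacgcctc
Rpl7a, chr2:26910788-26910817, plus strand: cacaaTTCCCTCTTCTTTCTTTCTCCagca
The run measured 7 bases in Rplp0, 10 in Rpl13 and Rps6, 14 in Rpl4 and 21 in Rpl7a. Counted from the start kept, with upstream bases negative, it began at -18 in Rpl4 and -16 in Rpl13. It ended before the start in both. It began at -14 in Rpl7a and -1 in Rps6 and spanned the start, and in Rplp0 it began after the start, at base 12. No sequence is shown for Rpl7. These are matches of letters near an annotated start, and the start actually used in LS was not measured.

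Lactating maternal and virgin mice differed little in ribosomal protein mRNA. Of the 59 genes, 42 were lower in maternal mice, 15 were higher and 2 were equal, and the median log2 difference was -0.03. Over all 35557 probesets the median was 0.01 and 43.4% were lower, and over the 21789 probesets that name 1 gene, as the members do, the median was 0 and 49.8% were lower. Rpl7 and Rplp0, both of the large subunit, were called lower at an FDR-adjusted p below 0.25 (limma, over all probesets), and no member was called higher. These are 3.39% of the members, beside 1.65% of all probesets called in either direction and 0.813% called lower. At an unadjusted p below 0.05, 5 members were lower and 0 higher, where 4.62% of all probesets were lower and 5.8% higher. Among probesets that name 1 gene these shares were 6.1% and 3.86%. For 45 of 59 genes the 95% confidence interval of the log2 difference lay within ±0.2, and for 57 within ±0.3.

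**Figure D1:**
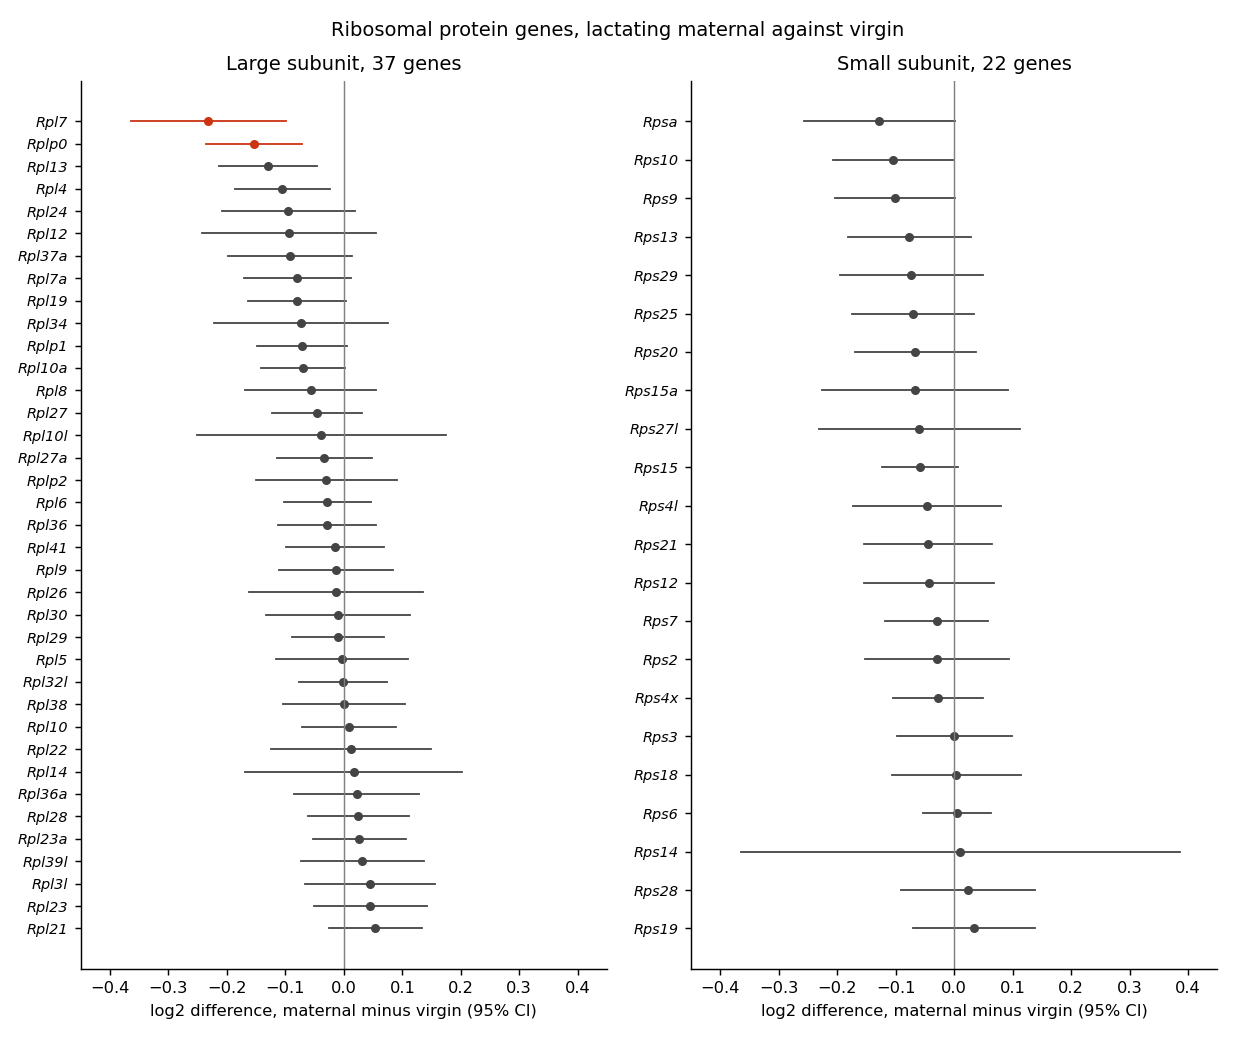
Log2 difference of each gene, lactating maternal minus virgin, with its 95% confidence interval from limma (n = 6 mice per group), large subunit left and small subunit right; red marks an FDR-adjusted p below 0.25. Most points lie left of 0 and within 0.1 of it, only Rpl7 and Rplp0 are red, and Rps14 has the widest interval.

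Rpl7 encodes a protein of the large subunit and showed the widest difference of the set. Its signal in virgin mice was 9.67, 9.83, 9.91, 9.81, 9.79 and 9.66. In lactating maternal mice it was 9.67, 9.47, 9.66, 9.43, 9.48 and 9.57. All 6 maternal values were below the virgin mean, but the highest maternal value equaled the lowest but one of the virgin values, so the groups met at their edges. The means were 9.55 ± 0.10 and 9.78 ± 0.10 (SD, n = 6), a log2 difference of -0.23 (SE 0.06, fold change 0.85, FDR-adjusted p = 0.198, limma). Its 4 probesets gave differences between -0.23 and -0.22 and all 4 were called. All 4 are assigned to the same gene and read the same mice, so they are not independent measurements. Their probe sequences were not compared.

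Rplp0 encodes the base of the ribosomal stalk, the flexible arm of the large subunit that recruits elongation factors. Its signal was 11.43, 11.44, 11.29, 11.35, 11.36 and 11.27 in virgin mice. The maternal values were 11.31, 11.23, 11.25, 11.16, 11.13 and 11.14. A single maternal mouse reached into the virgin range. The means were 11.20 ± 0.07 against 11.36 ± 0.07, a log2 difference of -0.15 (SE 0.04, fold change 0.90, FDR-adjusted p = 0.180). This probeset lay away from the place of the Rplp0 gene on its chromosome, by the order of the probeset numbers. The probeset at the gene's own place gave 11.12 ± 0.06 against 11.27 ± 0.06 and an FDR-adjusted p of 0.139, and there the highest maternal value, 11.20, was under the lowest virgin value, 11.22.

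The other stalk proteins, Rplp1 and Rplp2, bind Rplp0 as acidic pairs. Rplp1 was 12.83 ± 0.04 in maternal and 12.90 ± 0.03 in virgin mice, a log2 difference of -0.07 (FDR-adjusted p = 0.518), with all 6 maternal values below the virgin mean. Rplp2 differed by -0.03 (95% CI -0.15 to 0.09, FDR-adjusted p = 0.897). Of the 3 stalk genes, Rplp0 alone passed the threshold, and a difference between the stalk genes was not tested.

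Rpl13 and Rpl4, both large subunit proteins, came next in order of p and were not called. Rpl13 ran from 10.29 to 10.53 in virgin mice (median 10.34) and from 10.19 to 10.27 in maternal mice (median 10.25). It was the only member whose maternal and virgin values did not overlap, beside 0.551% of all probesets with every maternal value lower. Its log2 difference was -0.13 (SE 0.04, FDR-adjusted p = 0.251), just past the threshold. Its 9 probesets differed by -0.14 to -0.12, with no call, and the groups were apart in only 5 of them. Rpl4, which reaches into the tunnel through which the new protein leaves, ran from 10.67 to 10.78 in virgin mice (median 10.73) and from 10.60 to 10.67 in maternal mice (median 10.63). The groups shared the value 10.67, and the log2 difference was -0.11 (SE 0.04, FDR-adjusted p = 0.339). The study listed Rpl4, like Rplp0, among its most significant genes, lower in maternal mice. Its own fit thus called Rpl4, and the fit here did not.

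**Figure D2:**
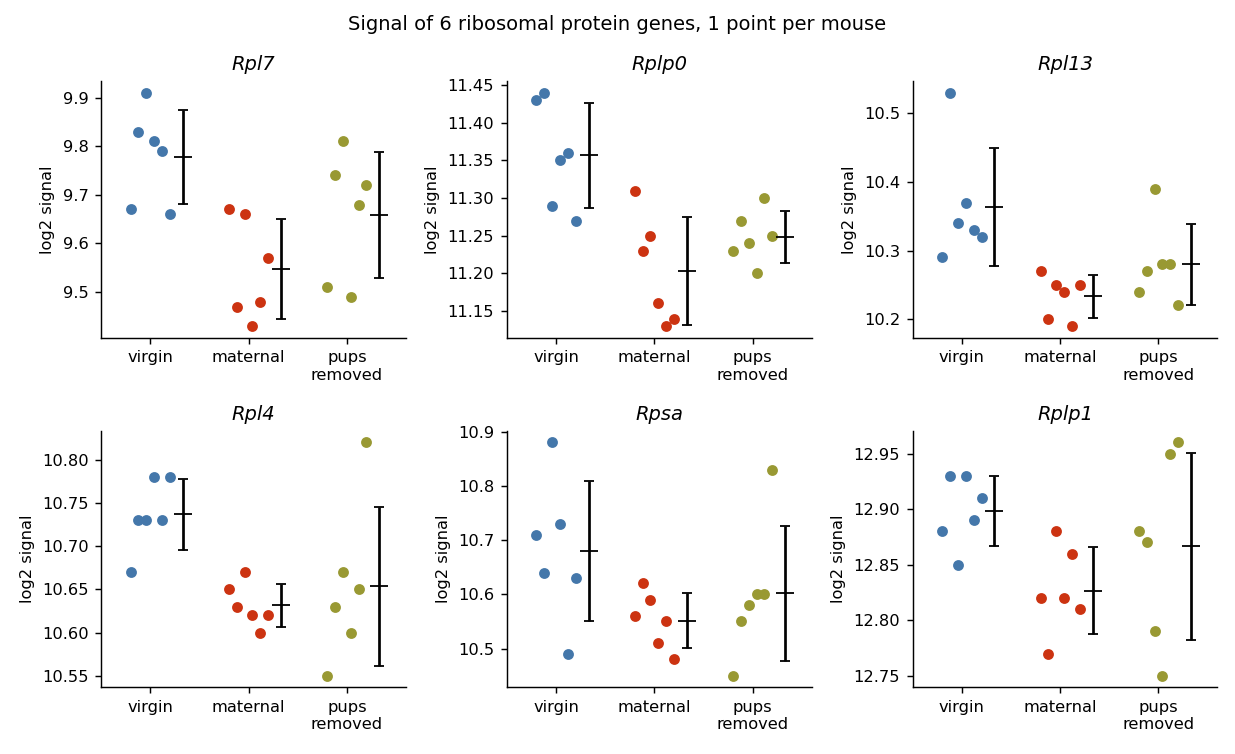
Log2 signal of 6 genes in each mouse (1 point per mouse, 6 per group), with the group mean and SD as black bars; each panel has its own axis, which does not start at 0. Maternal points of Rpl13 lie below all virgin points, those of Rpl4 and Rpl7 meet the virgin points at the edge, and those of Rplp0, Rpsa and Rplp1 overlap them.

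In the small subunit maternal mice had the lower mean for 16 of 22 genes, with a median log2 difference of -0.05, and none was called (1 had an unadjusted p below 0.05). The lowest p values belonged to Rps10 and Rps9, which lie near the entry of the mRNA, and to Rpsa, also known as the laminin receptor. Rps10 was 11.97 ± 0.09 against 12.08 ± 0.07 (log2 difference -0.11, FDR-adjusted p = 0.467). Rps9 was 10.67 ± 0.08 against 10.77 ± 0.07 (log2 difference -0.10, FDR-adjusted p = 0.483). Rpsa ran from 10.48 to 10.62 in maternal mice (median 10.56) and from 10.49 to 10.88 in virgin mice (median 10.68), so that all maternal values fell inside or just under the virgin range. Its log2 difference was -0.13 (SE 0.06, FDR-adjusted p = 0.482). Rps6, the target of the S6 kinases, had a log2 signal of 13.57 ± 0.02 in maternal and 13.56 ± 0.04 in virgin mice. Its difference was 0.01 (95% CI -0.05 to 0.06), the narrowest interval of the 59 genes.

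In the large subunit 26 of 37 genes were lower and 10 higher in maternal mice, and the median difference was -0.03. Rpl10a, of the stalk at the exit site for tRNA, was 12.43 ± 0.03 against 12.50 ± 0.05 (log2 difference -0.07, FDR-adjusted p = 0.488). The highest positive difference was that of Rpl21, 0.05 (95% CI -0.03 to 0.13). Averaged over its genes on each array, the large subunit gave 10.39 ± 0.05 for virgin mice, 10.35 ± 0.03 for maternal mice and 10.38 ± 0.04 after removal of the pups (SD, n = 6). The small subunit gave 10.84 ± 0.07, 10.80 ± 0.03 and 10.85 ± 0.04. These subunit means overlapped between all groups. The maternal minus virgin differences of -0.04 for both subunits were smaller than the SD among virgin mice and larger than that among maternal mice. An SD among mice does not measure the error of a difference, and no test was run on the subunit means.

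**Figure D3:**
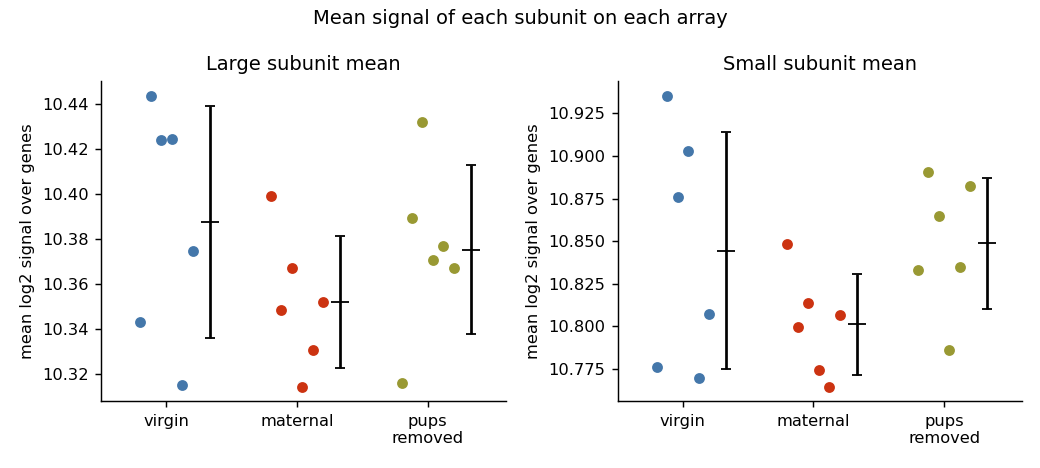
Mean log2 signal over the 37 large subunit genes (left) and the 22 small subunit genes (right) on each array, 1 point per mouse, with group mean and SD as black bars; the axes do not start at 0. The maternal points lie within the range of the virgin points or barely under it in both subunits, and the virgin points spread the most.

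The virgin mice differed among themselves across the whole set. In virgin replicate 2, 54 of 59 genes were above their own mean of 18 arrays, and in replicate 4, 49 were. In virgin replicates 5 and 1 only 16 and 17 were above it. Among maternal mice the number ran from 8 (replicate 4) to 38 (replicate 1), and among pups removed mice from 16 (replicate 1) to 44 (replicate 2). The same virgin mice stood apart in nuclear genes of the mitochondria. Of 82 oxidative phosphorylation genes, 78 were above their own mean in virgin replicate 2 and 17 in replicate 5. Over all 35557 probesets 17350 and 17897 were above theirs, within a span of 14428 to 22851 over the 18 arrays.

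**Figure D4:**
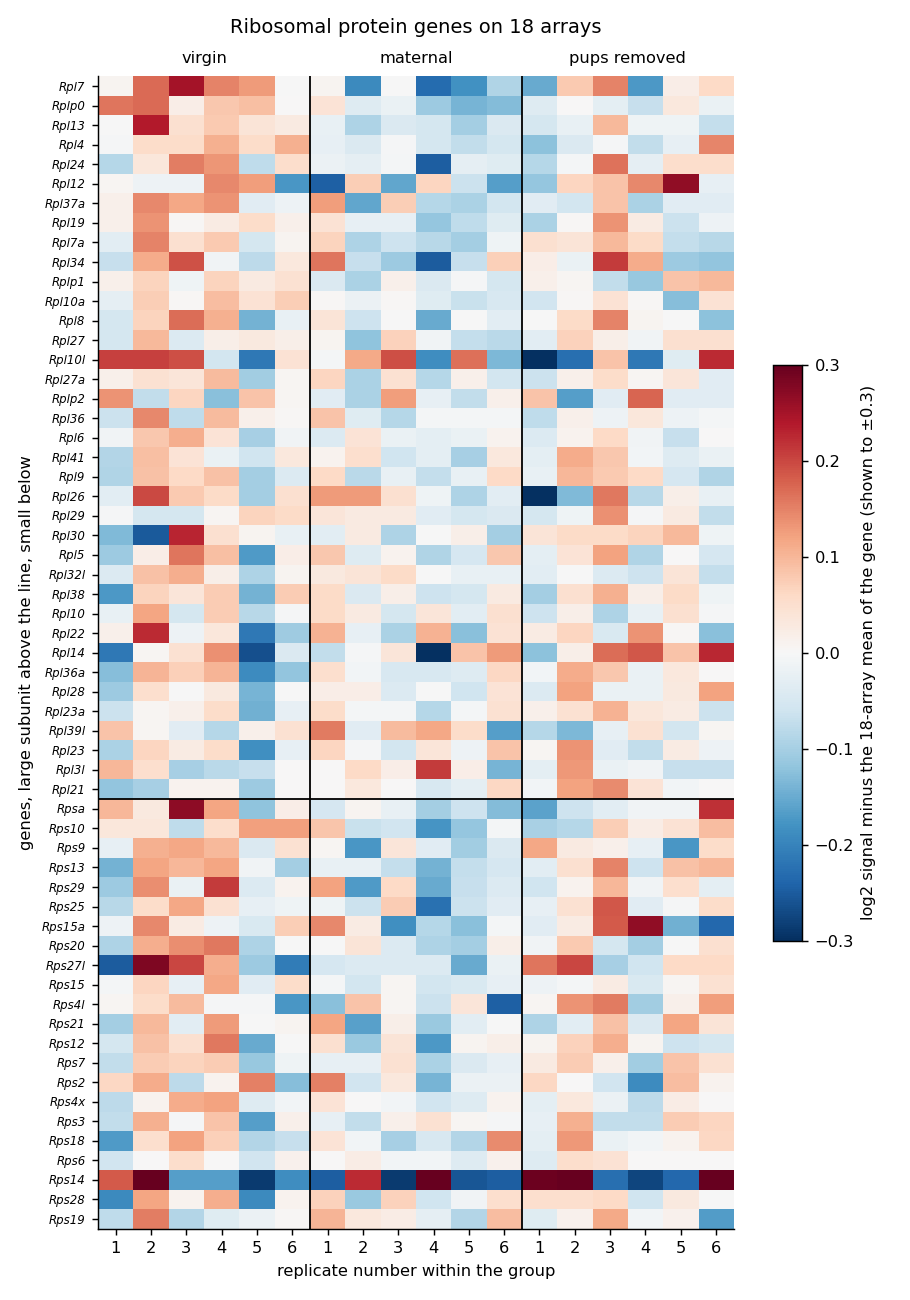
Log2 signal of each of the 59 genes on each array minus the gene's mean over 18 arrays, red above and blue below (colors end at 0.3 either side); columns are mice by group and rows are genes, large subunit on top, sorted by the maternal minus virgin difference. Columns of a single color, such as virgin replicate 2 (red) and maternal replicate 4 (mostly blue), show that most genes of a mouse moved together, and the Rps14 row stands out.

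The calls depended on single mice. Without virgin replicate 2 or maternal replicate 4, 5 or 6, 0 members were called by limma in lactating maternal against virgin mice, with 4 or 5 at an unadjusted p below 0.05. Without virgin replicate 3, 4 or 5 or maternal replicate 2, Rplp0 alone was called. Leaving out any of the 6 pups removed mice kept at least 2 calls.

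Between lactating maternal and pups removed mice, which had both given birth, 47 of 59 genes were lower and 11 higher in maternal mice, and the median log2 difference was -0.04. Over all probesets the median was -0.003 and 51.7% were lower, and 53.6% of those that name 1 gene were lower. The count of members called by limma was 0, beside 0.0309% of all probesets, and 2 members were lower and 0 higher at an unadjusted p below 0.05, beside 5.63% and 3.33% of all probesets. In the large subunit 28 of 37 genes were lower (median -0.03) and in the small subunit 19 of 22 (median -0.05). The 95% confidence interval lay within ±0.2 for 47 genes and within ±0.3 for 55.

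The lowest p values were those of Rps13, a small subunit protein at the contact between the subunits, and Rpl12, at the base of the stalk. Rps13 ran from 9.34 to 9.46 in maternal mice (median 9.42) and from 9.42 to 9.63 in pups removed mice (median 9.55), a log2 difference of -0.11 (SE 0.05, FDR-adjusted p = 0.544). The ranges overlapped narrowly. Rpl12 was 7.73 ± 0.13 against 7.89 ± 0.13 (log2 difference -0.15, SE 0.07, FDR-adjusted p = 0.552). Rps25, Rps4l, Rpl24 and Rpl27 were lower by 0.09, 0.11, 0.09 and 0.06 on the log2 scale, with FDR-adjusted p of 0.616, 0.632, 0.677 and 0.673. Rpl39l went the other way, with 5.45 ± 0.12 in maternal and 5.37 ± 0.06 in pups removed mice, a difference of 0.08 (FDR-adjusted p = 0.678). Rpl7 was 9.55 ± 0.10 against 9.66 ± 0.13, a log2 difference of -0.11 (FDR-adjusted p = 0.631), and Rplp0 differed by -0.05 (FDR-adjusted p = 0.768).

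Between pups removed and virgin mice, 34 genes were lower and 24 higher in pups removed mice, with a median log2 difference of -0.01, where all probesets had a median of 0.01 and 42.3% lower, and those that name 1 gene had 46.4% lower. The count called by limma was 0 beside 0.208% of all probesets, with 2 members lower and 1 higher at an unadjusted p below 0.05, beside 1.99% and 6.15% of all probesets. Rplp0 ran from 11.20 to 11.30 in pups removed mice (median 11.25) and from 11.27 to 11.44 in virgin mice (median 11.36), a log2 difference of -0.11 (SE 0.04, FDR-adjusted p = 0.449). Rpl4 differed by -0.08 (FDR-adjusted p = 0.597). Rpl21, of the large subunit, was 13.40 ± 0.07 against 13.30 ± 0.06, a difference of 0.10 (SE 0.04, FDR-adjusted p = 0.500). Rpl13, Rpl7, Rpl37a and Rpl10a differed by -0.08, -0.12, -0.09 and -0.06 and Rpl14 by 0.15, all without a call. The 3 comparisons share their groups, so their values are given side by side only. The maternal mean was the lowest of the 3 group means for 35 of 59 genes, the virgin mean for 12 and the pups removed mean for 9. This order was not counted over all probesets. Most genes of a mouse moved together, so the 59 genes are not separate observations of it.

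Members with a symbol ending in l or x were Rpl10l, Rpl32l, Rpl39l, Rpl3l, Rps27l, Rps4l and Rps4x. Rpl3l is known from heart and skeletal muscle, Rpl10l and Rpl39l from the testis, and Rps27l as a target of p53. In lactating maternal against virgin mice, 5 of these 7 were lower, from -0.06 (Rps27l) to 0.05 (Rpl3l), with FDR-adjusted p between 0.815 and 0.993. None was called in any comparison. Rpl39l, Rpl3l and Rpl10l were among the 4 members of lowest signal, with Rpl12. In maternal mice Rpl39l had a log2 signal of 5.45 ± 0.12, low on an array whose values ran from 2.33 to 14.72. The 4 members of highest signal, Rps6, Rpl21, Rpl41 and Rplp1, differed by -0.07 to 0.05, without a call. Signals of different probesets do not rank the amounts of their mRNAs.

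Many members were read through copies of their sequence. Ribosomal protein genes have large numbers of processed copies in the mouse genome. Of the 215 probesets, 54 lay at the place of the gene itself, judged by the probesets numbered next to them, and 161 lay elsewhere. The brightest probeset was at the gene's own place for 26 genes and elsewhere for 33. The 22 genes with 4 or more probesets allowed a comparison within genes. The lactating maternal minus virgin difference ranged by a median of 0.03 within a gene, and by 0.29 across the 59 genes. The widest range within a gene was that of Rpsa, 0.13, whose probesets went from -0.13 to -0.003. All 14 probesets of Rps12, singled out for their number after the values were seen, were lower by 0.03 to 0.09, with 8 distinct sets of values among them. Read at the gene's own place, 40 of 54 genes were lower in maternal mice (median -0.04) and again Rpl7 and Rplp0 were called. At an unadjusted p below 0.05 (limma), 9 of these 54 were lower and 0 higher, beside 5 and 0 of the 59 brightest probesets. In 2 of the 54 every maternal value was below every virgin value, beside 0.551% of all probesets.

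**Figure D5:**
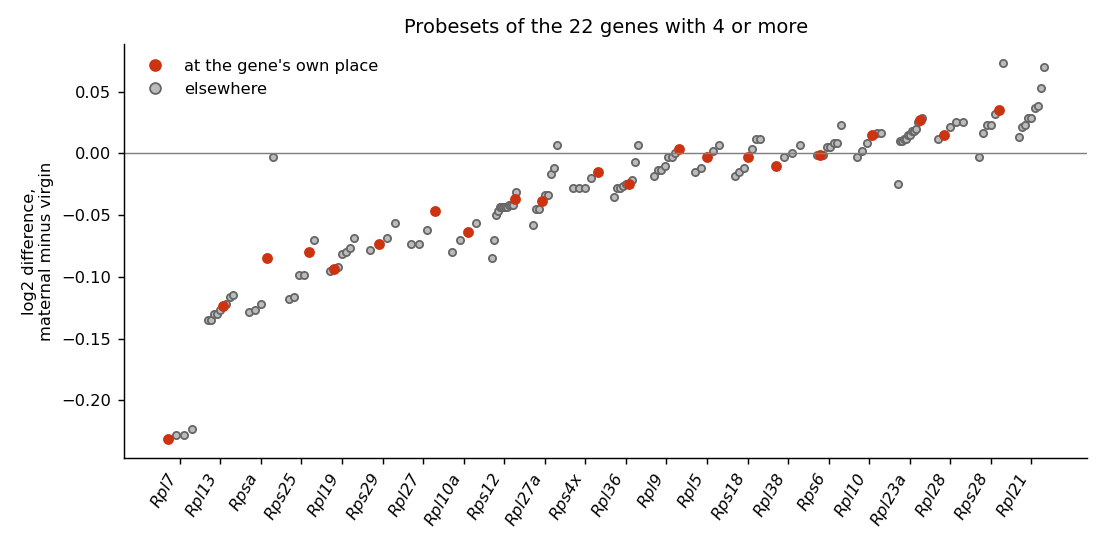
Log2 difference, lactating maternal minus virgin, of each probeset (1 point each) of the 22 genes with 4 or more probesets, sorted by the gene's median; red points lie at the gene's own place on the chromosome and gray points elsewhere. Probesets of a gene mostly lie within 0.05 of each other, with Rpl7 apart from the rest near -0.23 and a gray Rpsa point near 0.

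In the rest of the translation machinery 2 of 187 genes (1.07%) were called in lactating maternal against virgin mice, near the 1.65% of all probesets and the 1.49% of those that name 1 gene. None was called among 49 initiation factors (29 lower, median log2 difference -0.03), 16 elongation and release factors (11 lower, -0.02), 17 TOP genes outside the set (14 lower, -0.04) or 18 genes of RNA polymerase I, which makes ribosomal RNA (10 lower, -0.01). Of 65 ribosome assembly factors, 41 were lower and Tsr2, which escorts the small subunit protein Rps26, was called at -0.13 (FDR-adjusted p = 0.199). Of 32 genes around mTORC1 and Larp1, 16 were lower and Sesn3, an mTORC1 inhibitor, was called at -0.12 (FDR-adjusted p = 0.234). Fau, Rpl7l1 and Rps3a1, ribosomal genes outside the symbol rule, were all lower without a call (median -0.07). The other comparisons gave 0 calls in these lists by limma. The study's own fit differed here, as it listed Tsr2 as lower in maternal mice against pups removed mice too. Between maternal and pups removed mice Eif3l, an initiation factor subunit with a TOP tract, had the lowest p of these lists, at -0.15 (FDR-adjusted p = 0.287).

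Mitochondria have ribosomes of their own, with proteins encoded by separate nuclear genes. Of 77 mitochondrial ribosomal protein genes, 57 had the lower mean in maternal mice, with a median of -0.03 and 0 called. Of 82 oxidative phosphorylation genes, 66 were lower, with a median of -0.03 and 0 called (5 lower and 1 higher at an unadjusted p below 0.05). The shares lower, 74.0% and 80.5%, stand beside 71.2% of the cytosolic ribosomal protein genes and 49.8% of all probesets that name 1 gene. Against pups removed mice, 60 of 77 and 65 of 82 were lower (medians -0.04 and -0.04). A difference between the lists was not tested.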

How the data were processed

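LS RNA of 18 mice was hybridised to Affymetrix Mouse Gene 1.0 ST arrays. The authors deposited log2 signals of 35557 probesets, summarised with PLIER and GC bin background correction (Affymetrix Power Tools 1.12.0), to 2 decimals. These values were used as deposited, without further normalization. Probesets were named from the platform annotation (21789 with 1 gene, 1621 with several, 12147 with none used here). Group means were fitted to all 18 arrays in limma 3.58.1 (R 4.3.3) with moderated variances, without a block, and p-values were adjusted by Benjamini-Hochberg over all probesets. Calls used the study's threshold of 0.25, but the fit was repeated here and its calls were not all those of the study. The number of arrays limits precision. The place of a probeset was inferred from the symbols of the 5 probesets numbered on each side, within 5 Mb (GRCm38.p6). This rule gave the own place for 99.5% of 18075 genes with 1 probeset. Probesets known to lie elsewhere were not checked. Members, lists and named genes were chosen with earlier results of these data known. Genes were named if called or among the 8 lowest p of a comparison. Also named were symbols ending in l or x, stalk genes, the 4 brightest or dimmest, and Rpl4. Of the other lists, called genes are named, with Eif3l. The authors prepared RNA in matched triplets, with a mouse of each group. The labels do not say which arrays form a triplet, so the fit has no term for it. Same-numbered arrays of different groups did not deviate together (18 pairs, r from -0.25 to 0.10), so numbers were not taken as pairs. Alternatives were another normalization, probeset, filter, threshold, variance model and each mouse left out.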

Additional observations from a re-analysis of the deposited data

Results flagged for a closer look

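In 7 of 87 sets of 6 values, the highest or lowest mouse lay apart from the others by more than 0.625 of the range. Each of these 7 sets was a named gene in a group. Chance reaches such a distance in about 1 in 20 sets. Rpl13 was 10.53 in virgin replicate 2, with the nearest mouse at 10.37, and 10.39 in pups removed replicate 3, with the nearest at 10.28. Rpl24 was 10.24 in maternal replicate 4, below the other maternal mice at 10.45 and above. Rpl37a was 11.04 in pups removed replicate 3 (nearest 10.92), and Rpl3l, a dim probeset, was 6.47 in pups removed replicate 2 (nearest 6.33). Rps27l was 8.84 in maternal replicate 5 (nearest 8.94). Rps4l was 8.04 in virgin replicate 6 (nearest 8.21). The cause was not tested for any of them.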

How the results depend on the processing

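The count of members called in lactating maternal against virgin mice was 2. It became 4 with only probesets of a mean of at least 7 (Rpl13 and Rpl4 added), 1 with the arrays of these groups alone (Rpl7) and 0 at an FDR-adjusted p below 0.05, where none of the 35557 probesets was called. Leaving out a mouse moved the count between 0 and 3. It was 3 after quantile or cyclic loess normalization or with a variance trend, each time with Rpl13, and 2 with array weights, with the mean of all probesets of a gene and with the probeset at the gene's own place, a setting chosen after seeing the data. A block for the replicate number left the count at 2, while calls over all probesets went from 585 to 356, and among the 18 arrays 1 correlated best with its own number. In the comparisons of maternal with pups removed and of pups removed with virgin mice 0 members were called in every setting, the block included.

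The large subunit mean of maternal minus virgin mice ranged from -0.05 to -0.02 with a mouse left out, and the small subunit mean from -0.06 to -0.03. Against pups removed mice the ranges were -0.04 to -0.01 and -0.06 to -0.04. Pups removed minus virgin, the small subunit mean ran from -0.01 to 0.02 and so had no settled sign. With a mouse left out, the FDR-adjusted p of Rplp0 ran from 0.111 to 0.364 and that of Rpl7 from 0.137 to 0.381. Differences near 0.1 are within what 6 arrays per group leave undecided.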

Other observations

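Rps14, a small subunit protein, was singled out after its values were seen. Its signal ranged over 0.87 on the log2 scale across the 18 mice, where the median range of the 59 genes was 0.30 and the next widest 0.63. The values fell into 3 bands with nothing between them. In 11 mice the signal lay between 10.78 and 10.90 (4 virgin, 4 maternal and 3 pups removed mice), in 5 between 11.25 and 11.45 (2, 1 and 2) and in 2 at 11.64 and 11.65 (1 maternal and 1 pups removed mouse). The bands were spread over all groups, and the lactating maternal minus virgin difference was 0.01 (95% CI -0.37 to 0.39). The other probeset of Rps14, at the gene's own place, had an SD of 0.35 in maternal mice, beside 0.36 for the brightest. The cause was not tested.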
